A study of Mus musculus with 12 samples.

Results

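The Krüppel-like factor (KLF) transcripts described here are those of Klf2, Klf3, Klf4, Klf6, Klf7, Klf8, Klf9, Klf10 and Klf13. They are the 9 of 10 KLF genes chosen by symbol that were among the 12960 genes counted (Klf12 was not among them). All 9 passed the low-count filter, which left 10822 genes for testing. They were measured by RNA sequencing of mouse bone marrow-derived macrophages (BMDMs), which were differentiated for 7 days in medium with L929-conditioned medium as a source of M-CSF. Cells came from wildtype (WT) mice or from mice null for AMPKβ1 (AMPKβ1-/-), a regulatory subunit of the energy-sensing kinase AMPK. They received vehicle (0.1% DMSO) or 10 µM PF-06409577 (PF), an activator of AMPKβ1 complexes, for 6 h, and each of the 4 groups was sequenced as 3 libraries. The comparisons ask how PF changes these transcripts, whether its effect depends on AMPKβ1, and how the genotypes differ at rest. No source used here says whether the libraries of a group came from separate mice or cultures, so p values measure the spread between these libraries, which may be technical.

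KLF proteins bind CACCC and GC-rich boxes in DNA through zinc fingers at the C terminus, and their N-terminal regions recruit different cofactors. Klf2, Klf4, Klf6 and Klf7 are known mostly as activators, Klf3, Klf8 and Klf12 recruit the corepressor CtBP, and Klf9, Klf10 and Klf13 recruit the corepressor Sin3A. In macrophages, Klf2 and Klf4 are known to restrain inflammatory genes, and MEF2 factors, acting downstream of the kinase ERK5, are known to drive Klf2 transcription. Since KLF genes are themselves described as KLF targets, the upstream sequences of 4 members that the results turn on are shown, with a KLF type and a MEF2 type of box marked. Each is given 5′ to 3′ on the strand of the gene from RefSeq on GRCm38.p6, up to 250 bases before an annotated start and without bases of GENCODE M21 exons. Capitals mark CCNCNCCC (a pattern of GC-rich and some CACCC boxes) and the MEF2 type of box (CTA, any 4 bases, TAG), searched on both strands with overlapping matches counted. A CACCC outside these matches is not marked.
Klf2, chr8:72318812-72319032, plus strand: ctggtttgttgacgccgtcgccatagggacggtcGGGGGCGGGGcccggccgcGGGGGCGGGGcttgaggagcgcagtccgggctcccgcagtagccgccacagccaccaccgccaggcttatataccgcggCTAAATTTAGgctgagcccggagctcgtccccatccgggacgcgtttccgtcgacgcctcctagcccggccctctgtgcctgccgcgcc
Klf4, chr4:55532476-55532725, minus strand: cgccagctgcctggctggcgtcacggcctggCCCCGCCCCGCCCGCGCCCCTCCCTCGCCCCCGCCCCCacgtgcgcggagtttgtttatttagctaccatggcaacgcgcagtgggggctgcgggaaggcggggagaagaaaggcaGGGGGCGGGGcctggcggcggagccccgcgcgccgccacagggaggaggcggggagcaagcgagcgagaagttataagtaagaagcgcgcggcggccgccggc
Klf8, an internal start, chrX:153359363-153359612, plus strand: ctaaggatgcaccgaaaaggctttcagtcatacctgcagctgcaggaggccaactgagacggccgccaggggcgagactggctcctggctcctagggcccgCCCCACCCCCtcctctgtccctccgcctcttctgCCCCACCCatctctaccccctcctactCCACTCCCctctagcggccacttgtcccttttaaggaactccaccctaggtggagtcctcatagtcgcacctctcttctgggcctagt
Klf9, chr19:23140976-23141225, plus strand: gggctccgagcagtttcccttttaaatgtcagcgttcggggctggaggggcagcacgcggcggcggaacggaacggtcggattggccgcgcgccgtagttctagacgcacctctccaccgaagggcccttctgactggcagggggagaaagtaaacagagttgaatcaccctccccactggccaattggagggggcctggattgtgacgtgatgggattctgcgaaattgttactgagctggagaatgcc
The 250-base window of Klf2 held 1 match of the MEF2 type, which begins 118 bases before the RefSeq start, and 4 CCNCNCCC matches. Of 32851 RefSeq windows of this length, 3.20% held the MEF2 type and 45.9% held CCNCNCCC. Klf4 held 9 CCNCNCCC matches, this Klf8 window 4 and Klf9 none, and none of these 3 windows held the MEF2 type. The shorter CACCC, on either strand, had 1 match for Klf2 (in exon bases not printed), 0 for Klf4, 3 for this Klf8 window and 1 for Klf9. Of all windows, 52.0% held CACCC. A match describes the letters and says nothing of binding. Klf10 had no entry in the RefSeq table.

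The counts of a library summed to 8935609 to 14358180. A count of 0 allows up to 3 counts, which is 0.196 to 0.321 CPM (counts relative to a library size scaled by edgeR's TMM factors), for counting error only. Prkab1, which encodes AMPKβ1, was at 37.3 to 45.3 CPM in the WT libraries and at 6.05 to 9.42 CPM in the AMPKβ1-/- libraries. The 7 macrophage markers, Adgre1, Csf1r and Cd68 among them, summed to 24383 to 28492 CPM in every library. Granulocyte markers (4 of 7 in the counts) summed to at most 1.22 CPM and dendritic cell markers (2 of 3) to at most 0.554 CPM. None of 6 lymphoid markers was in the counts, and 1 of 5 erythroid markers, Hba-a1, reached at most 1.09 CPM. Fibroblast markers (5 of 5) summed to 0.923 to 1.89 CPM in WT vehicle libraries and 2.02 to 8.66 CPM in AMPKβ1-/- vehicle libraries. With PF they summed to 1.03 to 1.29 CPM in WT and 1.58 to 2.12 CPM in AMPKβ1-/- libraries, which overlaps with WT vehicle. Endothelial markers (3 of 4, namely Cdh5, Kdr and Pecam1) summed to 15.5 to 28.4 CPM with vehicle and 25.1 to 36.0 CPM with PF in WT. They summed to 12.9 to 16.1 CPM in AMPKβ1-/- BMDMs. The part of each gene in this sum is not given here. The part of fibroblast or endothelial RNA in the results was not tested.

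GC content of transcripts bore on the counts of each library to a different degree, and this degree ran along the groups. The slope of log2 CPM deviations per 10 percentage points of GC was 0.34 to 0.69 in WT vehicle, −0.05 to 0.35 in WT PF, −0.34 to −0.09 in AMPKβ1-/- vehicle and −0.49 to −0.32 in AMPKβ1-/- PF libraries. The KLF transcripts span this axis. GC content of the longest transcript was 42.4% for Klf6, 42.7% for Klf8, 45.3% for Klf7, 45.7% for Klf3, 46.9% for Klf10, 47.5% for Klf9, 54.6% for Klf4, 55.5% for Klf13 and 61.6% for Klf2, which is above 98.4% of tested genes. The members were therefore tested also with the trend in GC content and transcript length removed from every library. A biological change and a library effect that both follow GC content cannot be told apart here.

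Per kilobase of transcript, Klf6, Klf2 and Klf13 were the most abundant members in WT vehicle BMDMs, at 32.0 ± 4.37, 30.8 ± 0.876 and 26.4 ± 4.21 CPM per kb (SD, n = 3), and the libraries of neighbours in this order overlapped. Klf10 followed at 14.9 ± 1.80, Klf3 at 7.11 ± 0.794 and Klf4 at 3.68 ± 0.514 CPM per kb, each apart from its neighbours. Klf7, Klf8 and Klf9 were lowest, at 0.675 ± 0.151, 0.453 ± 0.158 and 0.292 ± 0.0673 CPM per kb, and neighbours overlapped. In AMPKβ1-/- vehicle BMDMs, Klf6 led at 57.7 ± 9.95 CPM per kb, Klf13 was second at 30.7 ± 1.20 and Klf2 came next at 20.9 ± 0.837, with no overlap between them. The summed level of the 9 members was 116 ± 7.92 CPM per kb in WT vehicle, 118 ± 7.79 in WT PF, 146 ± 14.5 in AMPKβ1-/- vehicle and 161 ± 2.38 in AMPKβ1-/- PF BMDMs. Klf2 made up 26.5 ± 1.10% of that sum in WT vehicle, 19.5 ± 3.50% in WT PF, 14.4 ± 1.62% in AMPKβ1-/- vehicle and 13.9 ± 1.15% in AMPKβ1-/- PF BMDMs. Klf6 made up 27.5 ± 3.49%, 35.4 ± 3.88%, 39.3 ± 3.08% and 40.9 ± 1.84% in the same order. These levels, sums and shares still hold the GC trend, and Klf2 and Klf6 are the members of highest and lowest GC content. With the GC and length trend removed, the log2 fold change between vehicle-treated genotypes was −0.11 for Klf2 and 0.033 for Klf6.

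**Figure D1:**
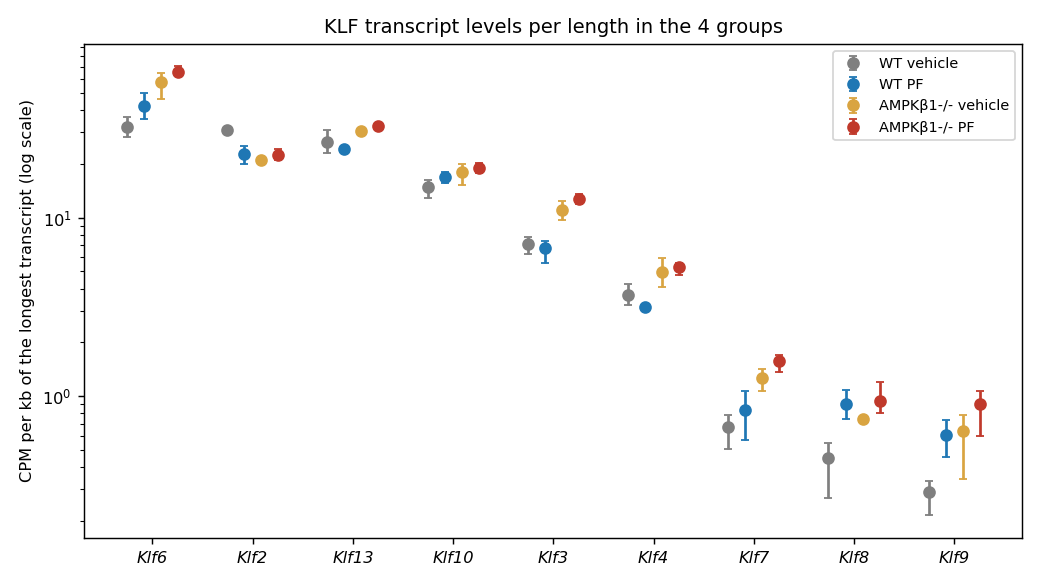
Level of each KLF transcript in CPM per kb of its longest transcript (log axis) in the 4 groups; points are means of 3 libraries and bars run from the lowest to the highest library. Klf6 is highest in every group, and Klf2 goes from 30.8 in WT vehicle to between 20.9 and 22.8 in the other groups. The GC and length trend is not removed from these levels.

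In WT BMDMs, Klf2 fell and Klf8 rose with PF against vehicle, and the other 7 members did not pass the test (edgeR's quasi-likelihood test with Benjamini-Hochberg adjustment over 10822 genes, used for all adjusted p values). These 2 of 9 members compare with 15.9% of all tested genes (6.99% higher and 8.95% lower). The median log2 fold change of the 9 was 0.17, against 0.0048 over all tested genes, and it was 0.045 with the GC and length trend removed. The libraries of both treatments were fully separate for 4 members (Klf2 and Klf4 lower, Klf8 and Klf9 higher), as they were for 32.2% of tested genes (18.1% lower and 14.2% higher). In bulk RNA, a change in cell make-up and a change in RNA per cell cannot be told apart.

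In WT, Klf2 was at 55.1, 58.2 and 57.4 CPM with vehicle and at 46.7, 42.8 and 37.1 CPM with PF. Every PF library lay below every vehicle library. The log2 fold change of Klf2 was −0.43, with an SE of 0.096 (adjusted p = 0.0110). The call was lost without WT PF library 3 (log2 fold change −0.34, adjusted p = 0.0671), when only the 6 WT libraries were fitted (−0.42, adjusted p = 0.0571) and after removal of the GC and length trend (−0.20, adjusted p = 0.123). Over all alternatives its log2 fold change was −0.51 to −0.20.

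Klf4, the activator closest in role to Klf2 in macrophages, was at 10.8, 9.78 and 12.8 CPM with vehicle and at 9.60, 9.55 and 9.69 CPM with PF. The groups did not overlap, by a narrow margin, and the log2 fold change of −0.21 (SE 0.16) did not pass (adjusted p = 0.336). After removal of the GC and length trend it was −0.0073. Klf6, an early-response activator, was at 131, 156 and 119 CPM with vehicle and at 151, 170 and 211 CPM with PF, so that groups overlapped. With a log2 fold change of 0.39 it missed the threshold (SE 0.14, adjusted p = 0.0743). It passed with DESeq2 (adjusted p = 0.0302) and on leaving out vehicle library 2 of WT, PF library 1 of WT or vehicle library 1 of AMPKβ1-/- (adjusted p = 0.0368, 0.0242 and 0.0360), and its log2 fold change was 0.0072 once the GC and length trend was removed. Klf7, a factor best known from neurons and fat tissue, had 36, 65 and 57 counts with vehicle and 51, 71 and 106 with PF, with overlapping groups, and its log2 fold change of 0.30 did not pass (SE 0.23, adjusted p = 0.348). After removal of the trend it was 0.086.

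For Klf8, vehicle-treated WT BMDMs gave 12, 28 and 26 counts and PF-treated ones 41, 55 and 54. This is 1.28, 2.58 and 2.59 CPM against 3.52, 5.15 and 4.15 CPM, with every PF library above every vehicle library. Its log2 fold change of 0.97 passed, with an SE of 0.27 and an adjusted p of 0.0262, and it was the only member also past a log2 fold change of 0.8, as 1.52% of tested genes were. Leaving out WT vehicle library 1 gave an adjusted p of 0.102, leaving out PF library 2 of WT gave 0.0952 and leaving out PF library 3 gave 0.0769. Fitting only the 6 WT libraries gave 0.0717, and removal of the GC and length trend gave 0.144 (log2 fold change 0.62). Klf3, which shares the CtBP-binding repressor role of Klf8, was at 32.5, 40.5 and 38.3 CPM with vehicle and at 29.2, 37.6 and 38.6 CPM with PF. Its groups overlapped, and the log2 fold change of −0.079 was within error (SE 0.13, adjusted p = 0.664). After removal of the trend it was −0.28 and passed (adjusted p = 0.0420), when 7.24% of all tested genes did.

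Among the Sin3A-binding members, Klf9 had 9, 16 and 15 counts with vehicle and 24, 35 and 37 with PF. Its groups did not overlap, and its log2 fold change of 1.04 (SE 0.37) missed the threshold (adjusted p = 0.0645). It passed without WT PF library 1 (1.20, adjusted p = 0.0321) or AMPKβ1-/- vehicle library 1 (1.04, adjusted p = 0.0349), and was 0.94 (adjusted p = 0.120) after removal of the trend. Klf10, an early target of TGF-β, was at 39.1, 47.8 and 49.3 CPM with vehicle and at 47.4, 51.8 and 54.5 CPM with PF, which overlapped (log2 fold change 0.17, SE 0.11, adjusted p = 0.277). Klf13, known for its role at the Ccl5 gene in T cells, was at 147, 162 and 199 CPM with vehicle and at 148, 160 and 157 CPM with PF, and groups overlapped (log2 fold change −0.13, SE 0.094, adjusted p = 0.337). WT vehicle library 3 was the highest of these 6 libraries for Klf13.

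**Figure D2:**
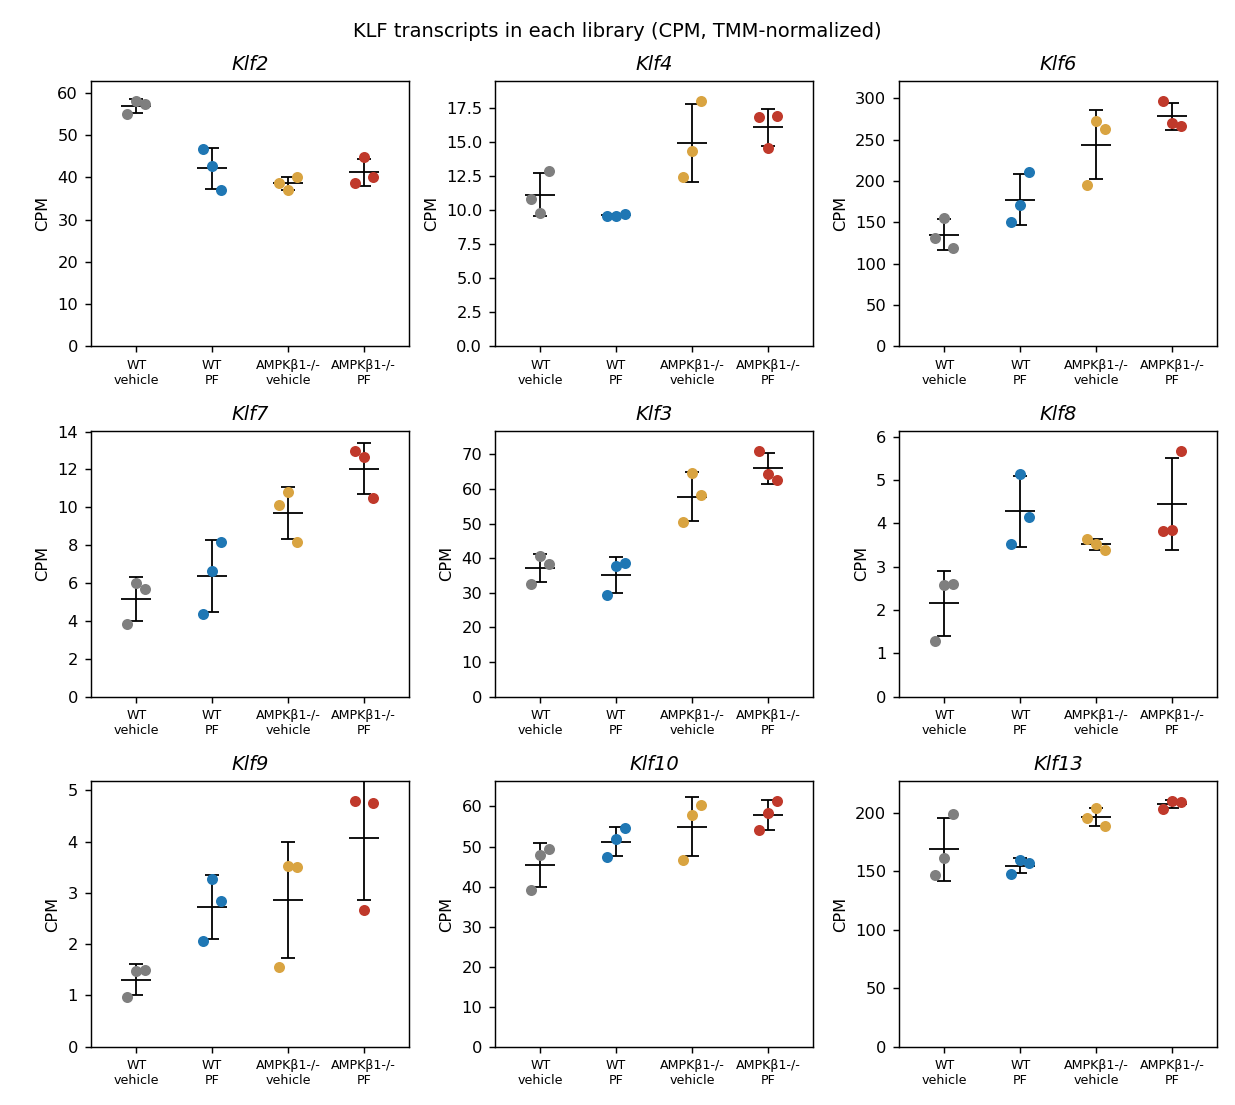
TMM-normalized CPM of each KLF transcript in each of the 12 libraries, with the mean and SD of the 3 libraries of a group as black lines; each panel has its own axis from 0. Klf2 lies at 55.1 to 58.2 CPM in WT vehicle and at 37.1 to 46.7 CPM in WT PF, and Klf8 at 1.28 to 2.59 against 3.52 to 5.15 CPM.

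In AMPKβ1-/- BMDMs no member passed the test of PF against vehicle, by edgeR, DESeq2 or limma-voom, and none had an unadjusted p below 0.05 by edgeR. Of all tested genes 0.0554% passed and 4.98% had an unadjusted p below 0.05. Klf2 was at 38.6, 37.1 and 40.2 CPM with vehicle and at 38.8, 44.8 and 40.1 CPM with PF, which overlapped, and its log2 fold change was 0.096 (95% interval −0.11 to 0.30). Klf8 was at 3.65, 3.52 and 3.39 CPM with vehicle and at 3.83, 3.85 and 5.67 CPM with PF, and it was the 1 member whose libraries did not overlap, with PF higher, as in 8.21% of tested genes (log2 fold change 0.33, 95% interval −0.18 to 0.84). Klf9 had 17, 54 and 33 counts with vehicle and 55, 34 and 51 with PF, with overlap and a log2 fold change of 0.49 (95% interval −0.16 to 1.13). All 9 log2 fold changes were above 0, from 0.076 for Klf10 to 0.49 for Klf9, as were those of 48.7% of tested genes, and every 95% interval included 0. Without the GC and length trend they ran from 0.042 for Klf6 to 0.48 for Klf9, and again none passed, against 0.0277% of tested genes. The sign of Klf10 turned to −0.029 without AMPKβ1-/- vehicle library 1.

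Whether the response to PF differed between genotypes was tested as an interaction (WT minus AMPKβ1-/-), and 0 of 9 members passed with edgeR, against 0.416% of tested genes. Klf2 came nearest, with a difference of −0.53 on the log2 scale (SE 0.14, 95% interval −0.82 to −0.24, unadjusted p = 0.00140, adjusted p = 0.103). It was the 1 member with an unadjusted p below 0.05, as 14.3% of tested genes had. It passed with DESeq2, which gave an adjusted p for 7 of the 9 members (−0.52, adjusted p = 0.0399), and without WT PF library 1 (−0.61, adjusted p = 0.0290), did not pass with limma-voom, and was −0.33 (adjusted p = 0.175) with the GC and length trend removed. For Klf8 the difference was 0.64 (95% interval −0.12 to 1.40, adjusted p = 0.438), and 0.44 (adjusted p = 0.635) without the trend, so a response of Klf8 particular to WT was not shown. For Klf7 it was −0.0010 with an interval of −0.65 to 0.64.

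**Figure D3:**
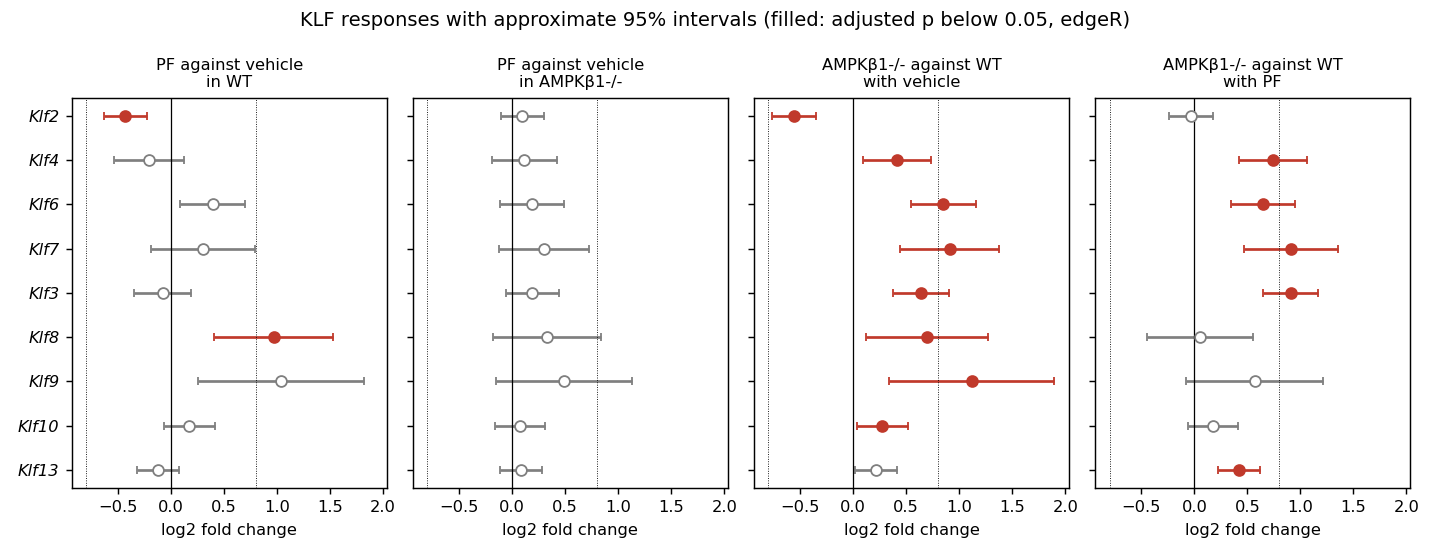
Log2 fold change of each KLF transcript (x axis) in 4 comparisons, with approximate 95% intervals; filled red points passed an adjusted p below 0.05 and dotted lines stand at log2 fold changes of −0.8 and 0.8. In WT, Klf2 (−0.43) and Klf8 (0.97) are filled for PF, no point is filled for PF in AMPKβ1-/- BMDMs, and 8 and 5 points are filled between the genotypes with vehicle and with PF.

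Between vehicle-treated genotypes, 7 members were higher and 1, Klf2, was lower in AMPKβ1-/- than in WT BMDMs. This is 8 of 9 where 59.7% of all tested genes passed, 29.7% higher and 30% lower. Past a log2 fold change of 0.8 were Klf6, Klf7 and Klf9, as were 17.8% of tested genes. For how many of all tested genes the genotypes did not overlap, with vehicle or with PF, is not given here. Non-overlap between genotypes therefore describes the libraries and is not read as particular to a member. The same WT vehicle libraries serve here and in the test of PF in WT, so the results of these comparisons are not independent. The median log2 fold change of the members was 0.64, against −0.026 over all tested genes, and it was 0.16 with the GC and length trend removed.

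The activators moved in opposite directions. The difference for Klf2 was −0.56 on the log2 scale, with an SE of 0.096 and an adjusted p of 2.47e-04, and its 37.1 to 40.2 CPM did not overlap with the WT vehicle libraries. Klf6 was at 196, 273 and 263 CPM in AMPKβ1-/- vehicle libraries, all above WT vehicle, a difference of 0.85 on the log2 scale with an SE of 0.14 (adjusted p = 3.12e-04). Klf7 had 111, 166 and 77 counts, or 10.1, 10.8 and 8.17 CPM against 3.85, 6.00 and 5.67 CPM in WT, with no overlap and a difference of 0.91 on the log2 scale (SE 0.22 and adjusted p = 0.00253). Klf4 had 136, 220 and 170 counts, a mean of 14.9 ± 2.86 CPM against 11.1 ± 1.56 CPM in WT, with the lowest library inside the WT range, and its log2 fold change of 0.42 (SE 0.15) passed (adjusted p = 0.0265). It did not pass without WT vehicle library 1 (0.0687), WT vehicle library 2 (0.106) or AMPKβ1-/- vehicle library 3 (0.152), all adjusted p.

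Of the repressors, Klf3 was at 50.4, 64.5 and 58.3 CPM, all above WT vehicle (log2 fold change 0.64, SE 0.12, adjusted p = 5.26e-04). Klf8 and Klf9 were higher by 0.69 (SE 0.27, adjusted p = 0.0372) and 1.12 (SE 0.37, adjusted p = 0.0158), with no overlap for either. Their counts were low, and either call was lost when WT vehicle library 1 (adjusted p = 0.166 for Klf8 and 0.0647 for Klf9) or AMPKβ1-/- vehicle library 2 (0.0815 and 0.0854) or 3 (0.0605 and 0.0534) was left out. The call for Klf8 was lost also without AMPKβ1-/- vehicle library 1 (adjusted p = 0.0709) and with DESeq2 (0.0550). Klf10 was higher by 0.27 with overlap (SE 0.11, adjusted p = 0.0473), and this call was lost in 11 of 21 alternatives, with adjusted p values from 0.00645 to 0.206 over all 21. Klf13 was at 196, 204 and 188 CPM, which overlapped with WT, and its log2 fold change of 0.21 just missed the threshold (SE 0.093, adjusted p = 0.0586). It passed with each of 3 other scalings (0.23 to 0.42), a filter of 10 counts in every library, DESeq2 or limma-voom, and without WT vehicle library 3 (0.35, adjusted p = 0.00209).

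With the GC and length trend removed, 3 members were higher in AMPKβ1-/- vehicle BMDMs, Klf4 by 0.76 (adjusted p = 9.65e-04), Klf9 by 0.95 (adjusted p = 0.0401) and Klf13 by 0.31 (adjusted p = 0.00389), where 37.0% of all tested genes passed. Klf6 was then at 0.033 (adjusted p = 0.783), Klf7 at 0.23 (0.318), Klf3 at 0.16 (0.127), Klf10 at 0.15 (0.197) and Klf2 at −0.11 (0.293), and Klf8 turned to −0.12 (0.754), values on the log2 scale with adjusted p in parentheses. Klf6 and Klf8, of the lowest GC content, moved most. The removed trend is itself a function of GC content and length, so the size of each move follows from the correction and is not a separate result. Across the 10665 tested genes with known GC content, the log2 fold change and GC content had a Spearman correlation of −0.74 in this comparison and −0.69 for PF in WT, and across the 9 members −0.67 and −0.70. Points are genes of the same libraries and are not independent.

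**Figure D4:**
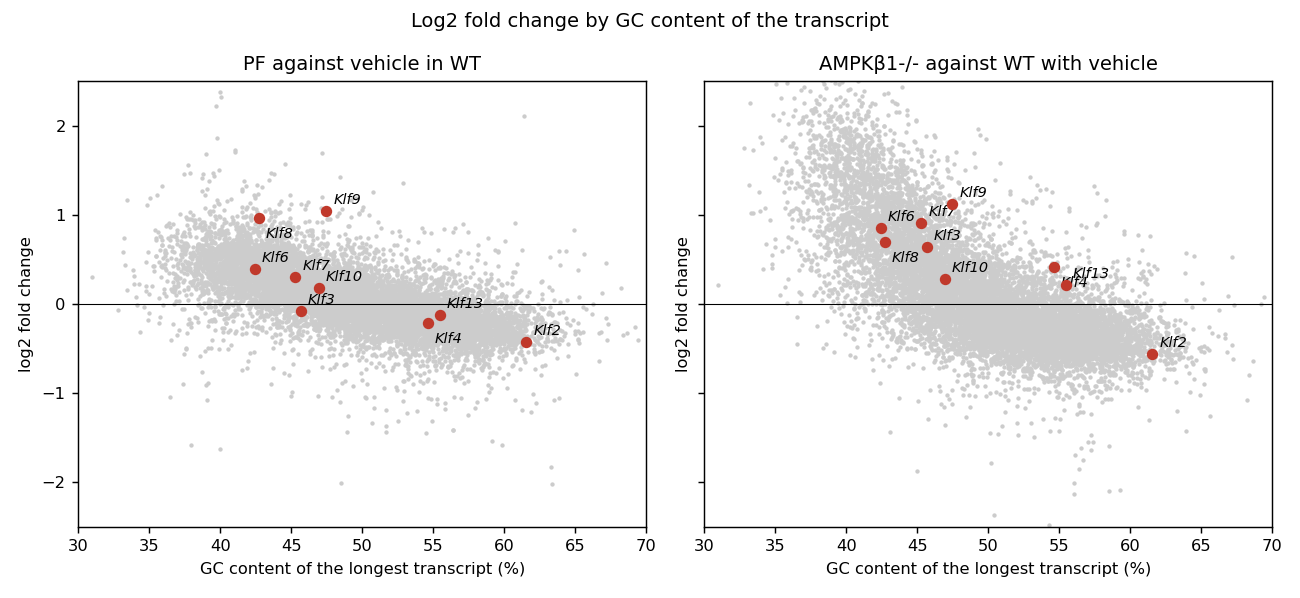
Log2 fold change (y axis) against GC content of the longest transcript in percent (x axis) for the tested genes (grey) and the KLF transcripts (red, named), for PF in WT (left) and for genotype with vehicle (right). Klf2, at 61.6% GC, lies at −0.43 and −0.56, and Klf6, at 42.4% GC, at 0.39 and 0.85, while Klf9, at 47.5% GC, lies at 1.04 and 1.12.

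With PF in both genotypes, 5 members were higher in AMPKβ1-/- BMDMs and none lower, with 47.1% of all tested genes past the test, 24.1% higher and 22.9% lower. Klf3 and Klf7 also passed a log2 fold change of 0.8, as did 14.3% of tested genes. Klf3 was at 71.0, 64.4 and 62.6 CPM against 29.2 to 38.6 CPM in WT, with no overlap and a difference of 0.91 on the log2 scale (SE 0.12 and adjusted p = 4.75e-05). Klf4 was at 16.8, 14.5 and 16.9 CPM against 9.55 to 9.69 CPM, also with no overlap (0.74, SE 0.15, adjusted p = 0.00111). The remaining 3 were Klf6 (0.65), Klf7 (0.91) and Klf13 (0.42), with adjusted p values of 0.00243, 0.00245 and 0.00201.

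Klf2 and Klf8 did not pass in this comparison. Klf2 had a log2 fold change of −0.032 (95% interval −0.24 to 0.17, adjusted p = 0.805), and its 38.8 to 44.8 CPM lay within the 37.1 to 46.7 CPM of WT PF. Klf8 had a log2 fold change of 0.057 (95% interval −0.44 to 0.56, adjusted p = 0.865). With the GC and length trend removed, Klf3 (0.57), Klf4 (0.92) and Klf13 (0.28) stayed higher, while the calls for Klf6 (0.067, adjusted p = 0.535) and Klf7 (0.35, adjusted p = 0.0856) were lost. Klf2 then passed as higher (0.22, adjusted p = 0.0288) and Klf8 as lower (−0.56, adjusted p = 0.0456), with 39.4% of all tested genes past the test.

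**Figure D5:**
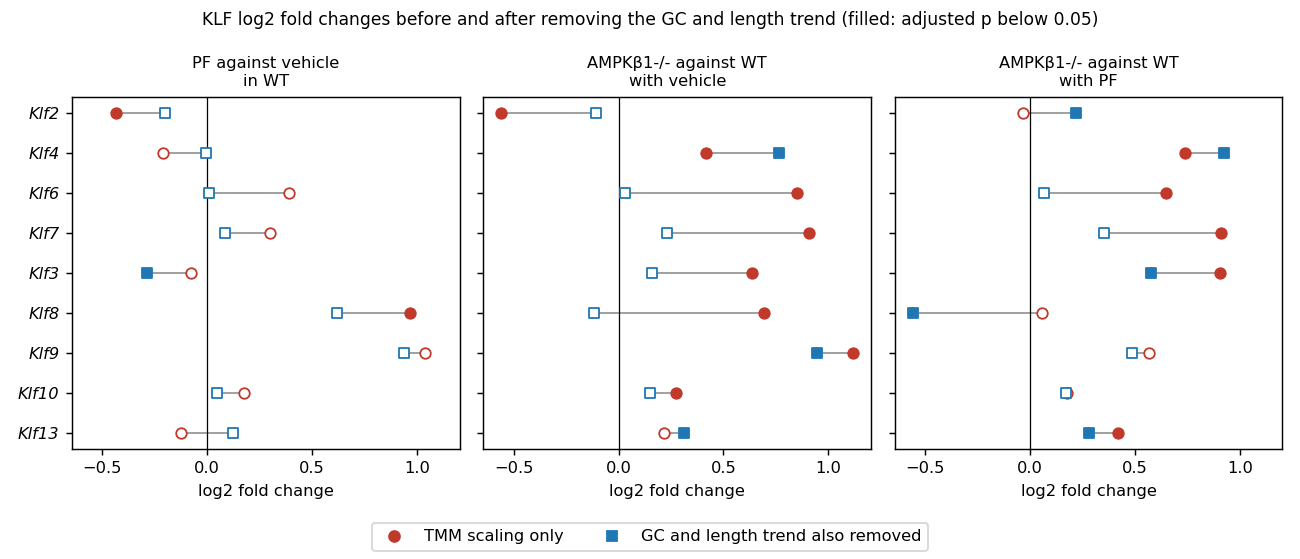
Log2 fold change of each KLF transcript with TMM scaling only (red circles) and with the GC and length trend also removed (blue squares), joined by a line, in 3 comparisons; filled symbols passed an adjusted p below 0.05. Klf6 moves from 0.85 to 0.033 and Klf4 from 0.42 to 0.76 between the vehicle groups, and Klf8 from 0.057 to −0.56 between the PF groups.

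Ratios of members within a library do not depend on the scaling of libraries. The Klf2 to Klf6 count ratio was 0.421, 0.374 and 0.481 in WT vehicle libraries and 0.310, 0.251 and 0.176 in WT PF libraries. It was 0.197, 0.136 and 0.153 in AMPKβ1-/- vehicle and 0.131, 0.166 and 0.150 in AMPKβ1-/- PF libraries. The WT vehicle libraries were thus above all others, and these are the members at either end of the GC range. Between Klf2 (61.6% GC) and Klf4 (54.6% GC), the ratio was 4.47 to 5.94 in WT vehicle and 3.83 to 4.87 in WT PF libraries. It was 2.23 to 3.11 in AMPKβ1-/- vehicle and 2.31 to 3.08 in AMPKβ1-/- PF libraries. The genotypes did not overlap in this ratio, and the 2 treatments of each genotype did. This pair also differs in GC content, and the GC trend is not removed from its ratio.

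The gene whose log2 CPM over the 12 libraries was most like that of each of the 3 members of highest mean CPM was Hspa13 for Klf6 (Pearson r = 0.993), Rapgef2 for Klf13 (r = 0.974) and Acp1 for Klf10 (r = 0.976). These values are over libraries that share genotype, treatment and the GC trend. Among members, Klf3 and Klf7 had r = 0.92 over the 12 libraries and r = 0.79 after group means were subtracted, and Klf2 and Klf6 had r = −0.80 and −0.51. These pairs were the highest and the lowest of all member pairs by both measures. The GC slope varied within groups too, so subtracting group means does not take it out.

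Other genes of the KLF pathway were read from 4 lists in the test of PF in WT. Over all tested genes in that test, 15.9% passed, 6.99% higher and 8.95% lower. Of 10 cofactor genes, 1 was lower and none higher, near the share over all tested genes. This was Fhl3, a LIM-domain partner of Klf3, at 246, 216 and 228 CPM with vehicle and at 168, 180 and 148 CPM with PF (log2 fold change −0.47, adjusted p = 0.00570). It remained past the threshold in all 21 alternatives (log2 fold change −0.54 to −0.28), with an interaction of −0.45 (adjusted p = 0.144). Hdac2 (0.44, adjusted p = 0.0737) and Crebbp (−0.20, adjusted p = 0.235) did not pass.

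Of 10 genes known to regulate KLF genes or proteins, 2 were lower and none higher, where 8.95% of all tested genes were lower. They were Mapk7, which encodes ERK5, and Map3k3, which encodes the kinase MEKK3 upstream of it. Mapk7 was at 60.8, 56.7 and 61.6 CPM with vehicle and at 50.0, 50.7 and 46.0 CPM with PF (log2 fold change −0.29, adjusted p = 0.0446), and Map3k3 at 199, 176 and 193 against 169, 152 and 147 CPM (−0.28, adjusted p = 0.0448). PF libraries were below vehicle libraries for both, as for 18.1% of tested genes, but each call was lost in 14 of 21 alternatives, and the values were −0.031 and −0.082 once the GC and length trend was removed. The ubiquitin ligase gene Wwp1 was at 0.58 (adjusted p = 0.0770). The MEF2 genes of this list did not pass and differed in sign. Mef2a was at 0.33 (adjusted p = 0.305), Mef2c at 0.092 (0.791) and Mef2d at −0.23 (0.0818). A link from these genes to Klf2 was not tested.

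Of 12 tested genes described as KLF targets, 2 were lower and none higher, where 15.9% of all tested genes passed and 8.95% were lower. Cd14, the lipopolysaccharide co-receptor, was at 1243, 1089 and 1076 CPM with vehicle and at 949, 808 and 766 CPM with PF (−0.43, adjusted p = 0.00664). Cdkn1a, which encodes the cell cycle inhibitor p21, was at 270, 248 and 238 against 204, 185 and 165 CPM (−0.45, adjusted p = 0.00696). Both had non-overlapping groups, as 32.2% of tested genes had (18.1% lower). The call for Cdkn1a held in all 21 alternatives and that for Cd14 in 20, the exception being the fit of the 6 WT libraries only (adjusted p = 0.0539). Lgals3 was at 0.26 (adjusted p = 0.0600). Of the 6 tested genes among other KLF and SP family members none passed, Klf11 (−0.43, adjusted p = 0.0718), Sp2 (−0.25) and Sp3 (0.43) included. The median log2 fold changes of the 4 lists were 0.0050 (family), −0.022 (cofactors), −0.053 (regulators) and 0.066 (targets), against 0.0048 over all tested genes.

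The same lists in AMPKβ1-/- BMDMs had no gene past the test of PF (0.0554% of all tested genes), with an unadjusted p below 0.05 for 2 family genes, no cofactor, 1 regulator and 1 target (4.98% of all tested genes). None passed the interaction by edgeR (0.416% of all tested genes), with an unadjusted p below 0.05 for no family gene, 1 cofactor, 1 regulator and 3 targets (14.3%). Between vehicle-treated genotypes, 3 family genes, 6 cofactors, 5 regulators and 5 targets were higher in AMPKβ1-/- BMDMs and 1, 2, 2 and 4 were lower, with 59.7% of all tested genes past the test (29.7% higher and 30% lower). With PF in both genotypes, 4, 6, 4 and 4 were higher and 1, 1, 1 and 3 lower, with 47.1% of all tested genes past the test (24.1% higher and 22.9% lower).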

How the data were processed

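RNA sequencing of WT and AMPKβ1-/- BMDMs with vehicle or PF gave 12 libraries in 4 groups of 3, taken from the genotype and treatment in the count columns and labels. The authors trimmed reads with Trim Galore, quantified transcripts with Salmon and deposited its estimated counts, summed to genes, as whole numbers without normalization. The genome build, annotation and Salmon version are not given in the sources used here. Libraries held 8935609 to 14358180 counts, and genes with few counts (Klf8 and Klf9 here) carry the largest errors. Library numbers are in no label and were not read as pairs. Replicate libraries were compared with a chi-square statistic per gene, which was 2.19 to 18.5 where counting alone gives about 1, so no library was taken for a copy.

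The software was edgeR 4.0.16, with DESeq2 1.42.0 and limma 3.58.1 as alternatives, under R 4.3.3. Group means were fitted to the 12 libraries together by robust quasi-likelihood in edgeR, after TMM scaling and filterByExpr by group. Tests were two-sided, with Benjamini-Hochberg adjustment over 10822 genes and a threshold of 0.05. A log2 fold change past 0.8, the threshold in the study's methods, was applied as an alternative. CPM are TMM-scaled, log2 CPM used a prior count of 2, and approximate SE and 95% intervals were taken from each F statistic. For the interaction, the SE and interval were instead built by combining the SEs of the responses in WT and in AMPKβ1-/- BMDMs. The pipeline was tested on simulated data. GC content, length and positions came from GENCODE M21 (GRCm38), with 12703 of 12960 genes matched by symbol and 4 by an older symbol. The trend in GC content and length was estimated per library by natural splines (5 degrees of freedom) and given to the fit as offsets.

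Named genes were the KLF members, Prkab1, the gene most correlated with each of the 3 members of highest mean CPM, and up to 3 genes of smallest p in WT from each list (KLF and SP family, cofactors, regulators, described targets). Mef2a, Mef2c and Mef2d of the regulators were named as well, without alternatives. Members, lists and tests were chosen with earlier results of these data known, so their counts are descriptions and not independent support. The alternatives were other scalings, filters, tools, libraries in the fit, the 0.8 threshold, GC and length, and leaving out each library. Those for the list genes were added after seeing the data.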

Additional observations from a re-analysis of the deposited data

How the results depend on the processing

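Of 1183 log2 fold changes of members and list genes recomputed under an alternative, 1060 kept their direction and side of the threshold, 65 lost a call, 30 gained one and 28 changed sign. A change of sign was counted only as such, and a missing adjusted p as not passing. Some alternatives left out a library of a group not compared, and some comparisons had no call to lose. The tally is therefore no measure of how robust a call is. The 2 members past the test of PF in WT became 0 when only the WT libraries were fitted, 1 with the log2 fold change threshold of 0.8 and 1 without the GC and length trend, and ranged from 0 to 4 with a library left out (0 without WT PF library 3, 1 without WT vehicle library 1 or WT PF library 2, and 4 without WT PF library 1 or AMPKβ1-/- vehicle library 1). The 1 member called without the GC and length trend was Klf3 (lower), and the calls for both Klf2 and Klf8 were lost. The count of 0 for PF in AMPKβ1-/- BMDMs was 0 in every alternative. The interaction count of 0 was 1 with DESeq2 and 0 to 1 with a library left out (1 without WT PF library 1). The 8 members between vehicle groups became 3 with the 0.8 threshold and 3 without the GC and length trend, and ranged from 4 to 9 with a library left out (4 without WT vehicle library 1 or AMPKβ1-/- vehicle library 3, and 5 without AMPKβ1-/- vehicle library 2). The 3 without the GC and length trend were Klf4, Klf9 and Klf13, of which Klf13 was not among the 8. The 5 between PF groups became 2 with the 0.8 threshold and ranged from 5 to 6 with a library left out. Without the GC and length trend they were again 5, but 4 higher and 1 lower, with Klf6 and Klf7 lost and Klf2 (higher) and Klf8 (lower) gained. For other scalings, filters, tools or libraries in the fit, the share of all tested genes past the test is not given here. Whether the member counts follow that share was not tested.

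Signs turned as follows, on the log2 scale. For PF in WT, Klf3 was 0.0015 with library size alone and −0.16 to 0.038 with a library left out, and Klf13 was 0.12 with the GC and length trend removed and −0.22 to 0.0065 with a library left out. For PF in AMPKβ1-/- BMDMs, Klf10 was −0.029 to 0.15 with a library left out. For the interaction, Klf6, Klf10 and Klf13 were −0.035, −0.022 and 0.028 once the GC and length trend was removed. The interaction of Klf7 was 0.00098 with DESeq2's size factors, 0.034 with upper quartile scaling, 0.063 with library size alone, 0.0078 with no filter, 0.0037 with at least 10 counts in every library, 0.00090 with DESeq2 and −0.23 to 0.21 with a library left out. Between vehicle groups, Klf8 was −0.12 with the GC and length trend removed. Between PF groups, Klf2 was 0.12 with library size alone and 0.22 once the GC and length trend was removed, Klf8 was −0.56 with the trend removed, and with a library left out they were −0.12 to 0.049 and −0.15 to 0.20. The cause of these changes was not tested.

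Klf9 had no value under at least 10 counts in every library, since it had fewer in WT vehicle library 1. No paired analysis was possible because the columns carry no numbers that the labels share. With 3 libraries a group and as few as 9 counts (Klf9), changes of low transcripts below about their intervals were not detectable at this depth. The groups also differ along GC content, so that calls lost with the trend removed are uncertain in size and in whether there is a change. Between vehicle groups, Klf6 went from 0.85 to 0.033 on the log2 scale, and Klf8 from 0.69 to −0.12, a change of sign.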
